A study of Rattus norvegicus with 6 samples.

Results

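Prostanoids are lipid mediators that cells make from arachidonic acid, and the enzymes and receptors examined here are those that form prostaglandins in a vessel wall and read them out. The set was given as 10 gene symbols, namely the cyclooxygenases Ptgs1 and Ptgs2, the terminal synthases Ptgis and Ptges, and the receptors Ptgir, Ptger1, Ptger2, Ptger3, Ptger4 and Ptgfr. By symbol, 8 of the 10 were found among the 14475 genes of the count table, and Ptges and Ptger2 were not analysed here. The 8 genes were measured in cultured vascular smooth muscle (VSM) cells of male Fischer 344 rats, taken from the vessel that feeds the soleus muscle (the soleus feed artery, SFA). There were 3 young cultures (4 months) and 3 old cultures (24 months), from 3 rats per age by the study's methods, each sequenced as 1 polyadenylated RNA library, with no other treatment. All cells had been grown in medium with fetal bovine serum, so the values describe cells in culture and not the artery, and the passage is not given in the sources used here.

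Cyclooxygenases convert arachidonic acid, released from membrane phospholipid, to an unstable endoperoxide. Ptgs1 encodes the form that most cells make at all times, and Ptgs2 the form that stimuli such as growth factors and stretch induce. Terminal synthases then shape the endoperoxide, and Ptgis yields prostacyclin, a vasodilator. The receptors differ in their G proteins. Ptgir and Ptger4 raise cAMP, which relaxes smooth muscle, Ptger3 lowers cAMP, and Ptger1 and Ptgfr raise intracellular calcium, which contracts it.

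Ptgs2 was the gene of the set in which young and old cultures stood farthest apart relative to their spread, and Ptgs1 is its constitutive counterpart, so the stretch of genome in front of each is shown. Both are the 250 bases before the annotated start, on the plus strand of the assembly GRCr8 (RefSeq), which is later than the assembly the reads were aligned to. Capitals mark matches to the motifs named after them.
Ptgs2 (chr13:64713813-64714062): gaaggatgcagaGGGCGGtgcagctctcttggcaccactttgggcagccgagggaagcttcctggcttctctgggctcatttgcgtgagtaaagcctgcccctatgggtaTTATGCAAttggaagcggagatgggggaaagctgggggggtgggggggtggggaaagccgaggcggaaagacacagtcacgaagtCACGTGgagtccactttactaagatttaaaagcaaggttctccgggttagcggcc
Ptgs1 (chr3:39981169-39981418): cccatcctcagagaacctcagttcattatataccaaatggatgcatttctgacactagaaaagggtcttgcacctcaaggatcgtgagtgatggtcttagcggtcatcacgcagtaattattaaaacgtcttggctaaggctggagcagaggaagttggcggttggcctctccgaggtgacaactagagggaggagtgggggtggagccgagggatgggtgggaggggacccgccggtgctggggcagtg

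The capitals in the Ptgs2 stretch are, from left to right, a GC box (GGGCGG) that begins 238 bases before the start, a C/EBP motif (TTNNGNAA) at 140 bases and an E-box (CACGTG) at 55 bases. The Ptgs1 stretch held no match to these motifs. Neither stretch matched the TATA box as TATAAA, the cAMP response element half-site as TGACG or the CArG box. Both strands were searched, and the matches did not overlap each other. Of 33465 rat promoter windows of the same length, 30.5% held the GC box, 37.2% the C/EBP motif, 5.59% the E-box, 12.9% the TATA box, 18.2% the half-site and 1.5% the CArG box. A match describes the letters only, and these libraries hold no measurement of binding.

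Levels are given as CPM, counts per 1000000 of the TMM-normalised library size. They are compared between libraries for 1 gene and not between genes, because transcript lengths were not used. Old was compared with young in edgeR's quasi-likelihood test over all genes, and a gene was called at a Benjamini-Hochberg adjusted p under 0.05 if its log2 fold change was also 1 or more in size. Of the 8 genes, 0 were called by edgeR, against 0.00691% of all genes (1 of 14475). At an unadjusted p under 0.05 there were 2 of the 8, Ptgs2 and Ptger3, against 22.6% of all genes. DESeq2's Wald test, the test of the study's methods, with the same thresholds called the same 2 genes, both lower in old, against 5.56% of all genes. limma-voom called 0 of the 8 and 0 of all genes. At an unadjusted p under 0.05 it had 2 of the 8, against 3347 of the 14475 genes. The 3 old libraries lay entirely below the 3 young libraries for Ptgs2 and Ptger3 and overlapped them for the other 6, and groups stood apart for 29.2% of all genes. For Ptger3 this order followed from the filter on low counts, as given below. The counts of tests above include Ptger3, and its tests do not allow for that filter. By edgeR's estimate 4 genes were lower in old and 4 higher. Over the 8 the log2 fold changes had a median of 0.24, and over all genes one of 0.02. A log2 fold change of 1 or more in size was reached by 3 of the 8 (Ptgs2, Ptger3 and Ptgis) and by 11.4% of all genes.

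**Figure D1:**
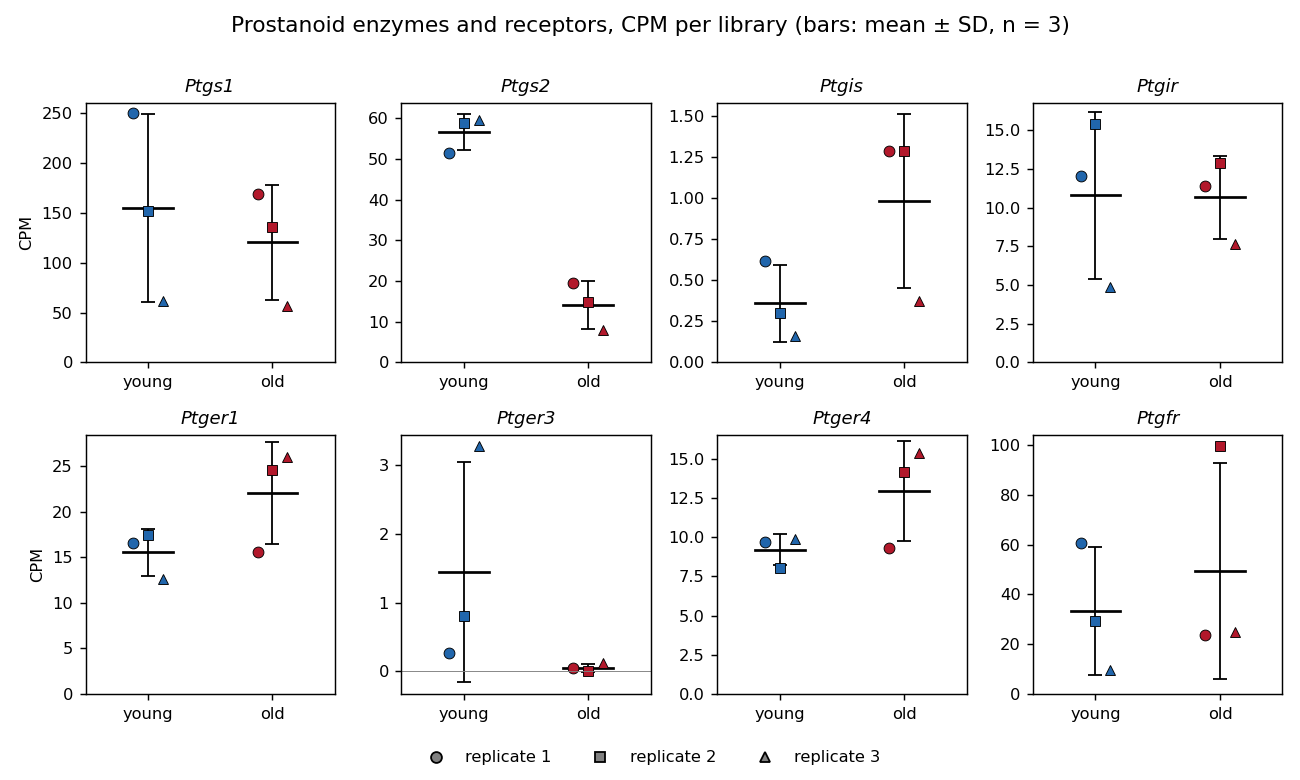
CPM of the 8 prostanoid genes in each library (1 panel per gene, linear axes, blue young and red old, symbols by replicate number, black lines mean ± SD with n = 3). The old points of Ptgs2 and Ptger3 all lie below the young points, and in the other 6 panels the groups overlap.

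Depth and composition of the libraries bear on all of these values. Total counts ranged from 44235674 to 59700887, and 68.7% to 71.1% of the counts from 1 to 19 were even numbers, so that a read pair may stand as 2 counts in the table. All 7 smooth muscle markers examined (Acta2, Myh11, Tagln, Cnn1, Lmod1, Smtn and Myocd) were detected in every library, with summed levels of 11206 to 20992 CPM in young and 3445 to 5560 CPM in old, and 7 of the 7 were lower in old. Of 7 fibroblast markers, 7 were higher in old, with sums of 244 to 667 CPM in young and 1109 to 2006 CPM in old. Neither pair of ranges overlapped, but as single genes the fibroblast markers Lum, Dpt and Pi16 overlapped between the ages. Pdgfra and Col14a1 had the highest means of the 7, at 234 and 148 CPM in young and 464 and 800 CPM in old. Sums over the endothelial markers analysed (6 of 8 listed) were 35.1 to 45.2 CPM in young and 32.9 to 44.1 CPM in old, with Pecam1 at no more than 0.765 CPM in any library and Cdh5 not analysed here. The 2 macrophage markers analysed of 8, Cd68 and Csf1r, summed to at most 2.90 CPM. Of the other lists, 4 of 7 mesothelial markers summed to 7.04 to 17.0 CPM in young and 12.6 to 43.4 CPM in old, and 4 of 6 pericyte markers to 904 to 1373 CPM and 667 to 1520 CPM. For 3 of 6 Schwann cell markers the ranges were 13.5 to 75.5 CPM and 54.9 to 86.4 CPM, and for 2 of 8 skeletal muscle markers 8.32 to 13.2 CPM and 11.0 to 28.7 CPM.

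Ptgs2, the inducible cyclooxygenase, was about 4 times lower in old VSM cells. It had 51.6, 58.8 and 59.6 CPM in young replicates 1, 2 and 3 and 19.5, 14.8 and 7.85 CPM in old replicates 1, 2 and 3. The highest old library was well below the lowest young one, the young libraries lay close together, and old replicate 3 was the lowest of all. The group levels were 56.7 ± 4.43 CPM in young and 14.0 ± 5.86 CPM in old (SD, n = 3 each), a 4.03-fold difference of the means. On the log2 scale the change was -2.01 with a standard error of 0.32, and edgeR's adjusted p of 0.0574 missed the threshold. Sorted by edgeR's p, 0.953% of all genes came before it. DESeq2 gave an adjusted p of 1.89e-07 and limma-voom one of 0.0524. With 1 library left out in turn, edgeR's log2 fold change ran from -2.32 to -1.72, and without old replicate 1 the gene was called (-2.32, adjusted p = 0.0278 from edgeR). In that setting edgeR called 732 of all genes, against 1 with all libraries.

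Ptgs2 was lower in the same 3 cultures in which the smooth muscle marker sum was lower and the fibroblast marker sum higher, and the part of either in the result was not tested. In these bulk libraries fewer cells of a type and less RNA per cell cannot be told apart. Within the young group the highest library exceeded the lowest by 1.16 times for Ptgs2, by 1.87 times for the smooth muscle sum and by 2.73 times for the fibroblast sum. Within the old group Ptgs2 had the widest range of these, 2.48 times, against 1.61 times for the smooth muscle sum and 1.81 times for the fibroblast sum.

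Ptgs1, the constitutive cyclooxygenase, did not differ between the ages beyond its spread. It had 251, 152 and 61.8 CPM in the young libraries and 169, 136 and 56.5 CPM in the old ones. In both groups replicate 3 was far below the others, and the groups overlapped, with young replicate 1 above every old library. The means were 155 ± 94.5 CPM and 121 ± 57.8 CPM (SD, n = 3 each). The log2 fold change was -0.36 with a standard error of 0.58 (adjusted p = 0.726 from edgeR), and without young replicate 1 it turned to 0.17.

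The balance of the cyclooxygenase counts within a library was described without a test, and it holds the lower Ptgs2 given above. Young replicates 1, 2 and 3 held 4.86, 2.59 and 1.04 Ptgs1 counts per Ptgs2 count, and old replicates 1, 2 and 3 held 8.66, 9.22 and 7.19. The old values lay above the young values and within a narrow band, whereas the young values were spread widely, following Ptgs1. This ratio needs no normalisation for depth, and a change in it does not depend on transcript length. As the log2 ratio of Ptgs2 to Ptgs1, with 1 added to each count, the means were -1.24 ± 1.12 in young and -3.05 ± 0.19 in old (SD, n = 3 each), a difference of -1.82 that lay between -2.34 and -1.23 with 1 library left out.

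**Figure D2:**
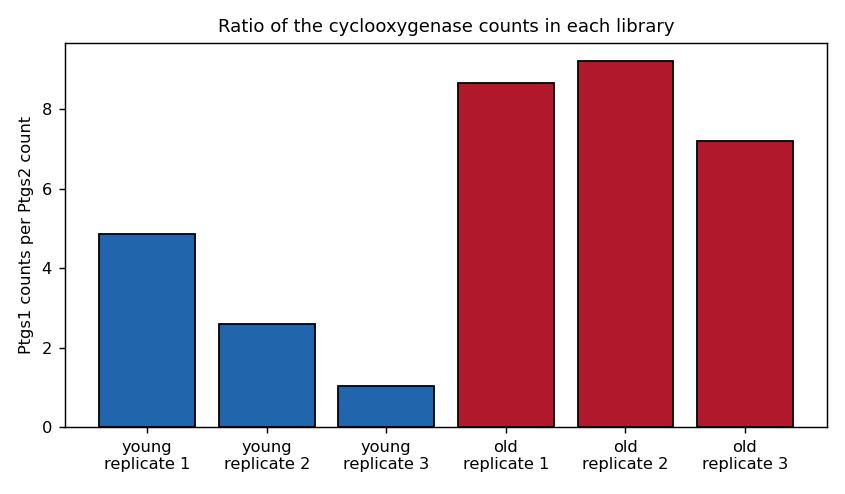
Ptgs1 counts per Ptgs2 count in each of the 6 libraries (bars from 0, blue young, red old). The young bars run from 1.04 to 4.86 and the old bars from 7.19 to 9.22.

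Ptgis, which encodes prostacyclin synthase, was near the lower end of detection in these cultures. Counts were 28, 18 and 8 in young and 64, 67 and 20 in old, or 0.620, 0.299 and 0.163 CPM against 1.29, 1.29 and 0.373 CPM. Old replicates 1 and 2 were above all young libraries, but old replicate 3 was below young replicate 1. The log2 fold change was 1.45 with a standard error of 0.66 (adjusted p = 0.248 from edgeR), the means being 0.361 ± 0.235 CPM and 0.983 ± 0.528 CPM (SD, n = 3 each). The summed counts, 54 in young and 151 in old, gave a rate ratio of 2.78 with an exact 95% interval of 2.03 to 3.87. That interval covers counting error only, and counting each mate of a pair would make it too narrow. The log2 ratio of Ptgis to Ptgs2, with 1 added to each count, was -6.33, -7.54 and -8.35 in the young libraries and -3.90, -3.50 and -4.33 in the old ones. These groups did not overlap, and the mean difference of 3.49 holds the lower Ptgs2 as well as the higher Ptgis.

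Among the receptors that raise cAMP, Ptgir, the prostacyclin receptor, had mean levels that lay close together, 10.8 ± 5.40 CPM in young and 10.7 ± 2.68 CPM in old (SD, n = 3 each). Its libraries had 12.1, 15.4 and 4.86 CPM in young and 11.4, 12.9 and 7.69 CPM in old. Replicate 3 was the lowest in each group, and the old range lay inside the young range. Old over young, the log2 fold change was -0.02 with a standard error of 0.43 (adjusted p = 0.985 from edgeR), and its sign changed under several settings. With 1 library left out the estimate lay between -0.37 and 0.34. That range and the standard error leave room for a change of moderate size in either direction.

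Ptger4, the EP4 receptor for prostaglandin E, also acts through cAMP. It had 9.68, 8.06 and 9.91 CPM in young and 9.31, 14.2 and 15.4 CPM in old, so old replicates 2 and 3 stood above the young libraries and old replicate 1 among them. Its log2 fold change was 0.49 with a standard error of 0.21 (adjusted p = 0.233 from edgeR). Without old replicate 1 it was 0.68 with an adjusted p of 0.0468 from edgeR, still under the fold threshold. In that setting edgeR called 732 of all genes, against 1 with all libraries. In the RefSeq table the gene overlaps the uncharacterised gene LOC120100730, and whether the counting used strand is not stated in the sources used here.

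Ptger3, the EP3 receptor that lowers cAMP, was the member with the largest estimated difference and among the lowest in counts. It had 12, 48 and 161 counts in young replicates 1, 2 and 3 and 2, 0 and 6 counts in old replicates 1, 2 and 3. Every old library was below every young library, and most of the young counts came from young replicate 3. The table holds only genes with 10 or more counts in 3 or more libraries. With all old counts under 10, Ptger3 could be in it only through the 3 young libraries. The order of the groups thus followed from that filter and is not a separate result. The filter did not fix how large the difference was. In CPM the young libraries had 0.266, 0.798 and 3.28 and the old libraries 0.0402, 0 and 0.112, and the 0 allows up to 0.0577 CPM (3 counts). The means were 1.45 ± 1.61 CPM and 0.0507 ± 0.0567 CPM (SD, n = 3 each). The fitted log2 fold change of -4.76 had a standard error of 1.27 (adjusted p = 0.119 from edgeR), and such a fit depends on the prior count added to low counts. From the summed counts, 221 in young and 8 in old, the rate was 27.8 times higher in young, with an exact 95% interval of 13.9 to 65.2 for counting error only. Neither this interval nor the tests allow for the filter.

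Without young replicate 3 the log2 fold change of Ptger3 was -3.33 (adjusted p = 0.232 from edgeR), and DESeq2, which gave an adjusted p of 0.00192 with all libraries, gave 0.115. Young replicate 3 also had the highest smooth muscle marker sum (20992 CPM) and the lowest fibroblast marker sum (244 CPM) of the 6 libraries, and their part in the Ptger3 result was not tested. A pseudogene, Vdac3-ps1, overlaps Ptger3 in the RefSeq table. The log2 ratio of Ptgir to Ptger3, with 1 added to each count, was 5.39, 4.25 and 0.57 in young and 7.57, 9.39 and 5.88 in old. The old libraries were above the young ones, with a mean difference of 4.21, or of 2.99 with 5 added to each count. With 1 added it was 2.79 without young replicate 3 and at most 5.21 with another library left out. This ratio holds the lower Ptger3, whose order between the groups followed from the filter on low counts, so it is not a separate result.

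Of the calcium-raising receptors, Ptger1 (EP1) had 16.6, 17.4 and 12.6 CPM in young and 15.6, 24.6 and 26.0 CPM in old. As for Ptger4, old replicates 2 and 3 were above the young libraries and old replicate 1 was not. Its log2 fold change was 0.51 with a standard error of 0.23 (adjusted p = 0.244 from edgeR). The means were 15.5 ± 2.60 CPM and 22.0 ± 5.64 CPM (SD, n = 3 each).

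Ptgfr, the receptor for prostaglandin F, varied more among cultures of an age than between the ages. It had 60.6, 29.4 and 9.57 CPM in young and 23.8, 99.5 and 24.7 CPM in old. The highest old library exceeded the lowest by 4.18 times and the highest young library exceeded the lowest by 6.34 times. Its log2 fold change was 0.57 with a standard error of 0.80 (adjusted p = 0.687 from edgeR). It rested on old replicate 2, without which it was -0.45.

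**Figure D3:**
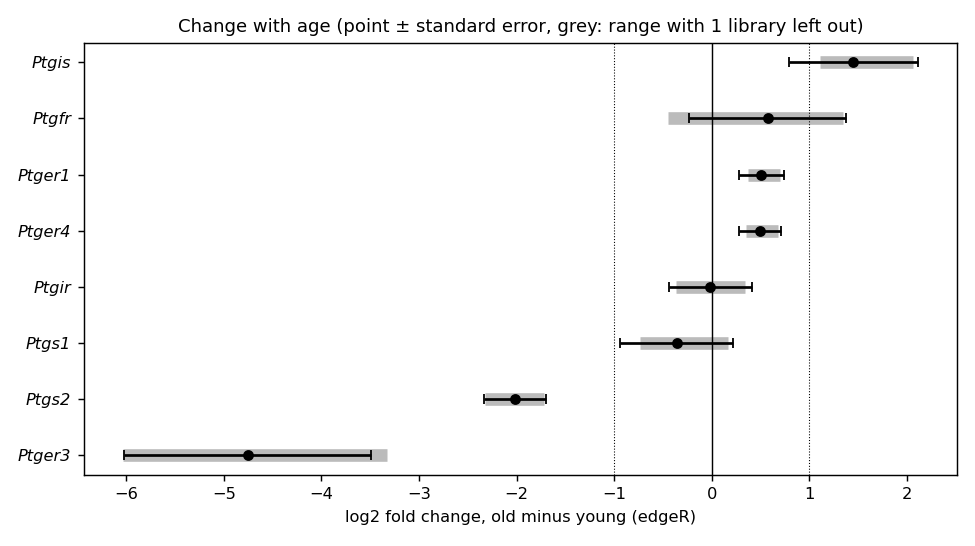
Log2 fold change of old over young from edgeR for the 8 genes (points ± standard error, grey bars the range with 1 library left out, dotted lines at -1 and 1). Ptgs2 and Ptger3 lie below -1 over their whole ranges, the ranges of Ptgir, Ptgs1 and Ptgfr cross 0, and those of Ptger1, Ptger4 and Ptgis stay above 0.

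Spread among cultures of the same age was wide for most of the set. The coefficient of variation over the 3 young libraries had a median of 55.5% over the 8 genes and of 11.8% over all genes, and in old it was 44.8% and 16.8%. Ptgs2 and Ptger4 varied least among the young, at 7.82% and 10.9%. Young replicate 3 was the lowest young library for 5 of the 8 genes (Ptgs1, Ptgis, Ptgir, Ptger1 and Ptgfr), and it was the highest for Ptgs2, Ptger3 and Ptger4. Its 8 genes together had 7946 raw counts, not scaled for depth, against 18151 and 17000 in young replicates 1 and 2. Of these, Ptgs1 alone had 3036, against 11316 and 9167. Over the 8 genes old replicate 3 had 7429, against 12427 and 15778 in old replicates 1 and 2. There Ptgs1 alone had 3029, against 8400 and 7089.

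The wider pathway was described with 7 lists holding 67 gene symbols, of which 52 were analysed. In edgeR 0 of the 52 were called, with 7 lower and 4 higher in old at an unadjusted p under 0.05. DESeq2 called 4, of which 2 were lower (Slco2a1 and Adcy10) and 2 higher (Hpgd and Adcy2). The median log2 fold change over the 52 was -0.10. These shares are to be read against the 22.6% and 5.56% of all genes given above.

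Genes that move prostaglandins across membranes and break them down held 2 of these calls. Slco2a1, the prostaglandin transporter that takes prostaglandins into cells for degradation, had 21.5, 71.6 and 56.1 CPM in young and 13.4, 6.66 and 4.55 CPM in old. All old libraries were below all young ones, with young replicate 1 nearest to them. It differed by -2.60 on the log2 scale, with a standard error of 0.57 (adjusted p = 0.0924 from edgeR and 4.65e-05 from DESeq2). Hpgd, the dehydrogenase that starts prostaglandin inactivation inside the cell, was barely detected in young cultures, with 0, 2 and 2 counts, and had 14, 65 and 14 counts in old. Its rate over the summed counts was 23.1 times higher in old, with an exact 95% interval of 8.73 to 86.6 for counting error only (adjusted p = 0.0982 from edgeR and 0.00352 from DESeq2). Neither the interval nor the tests allow for the filter on low counts, which Hpgd passed only through the old libraries.

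Abcc4, an exporter of prostaglandins and cyclic nucleotides, had 12.3, 14.6 and 16.0 CPM in young and 27.0, 23.0 and 30.7 CPM in old. The groups did not overlap, and the difference of 0.91 on the log2 scale (SE 0.15, adjusted p = 0.0636 from edgeR and 7.78e-05 from DESeq2) was under the fold threshold. Ptgr1, a prostaglandin reductase, had a log2 fold change of -0.76 (adjusted p = 0.167 from edgeR), with 72.7 ± 12.9 CPM in young and 42.9 ± 14.3 CPM in old (SD, n = 3 each). Of the 6 genes analysed of this list of 7 symbols, 3 were lower and 3 higher. Groups were separate for 4, counting Hpgd, and for 29.2% of all genes. For Hpgd the separation followed from the filter on low counts.

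**Figure D4:**
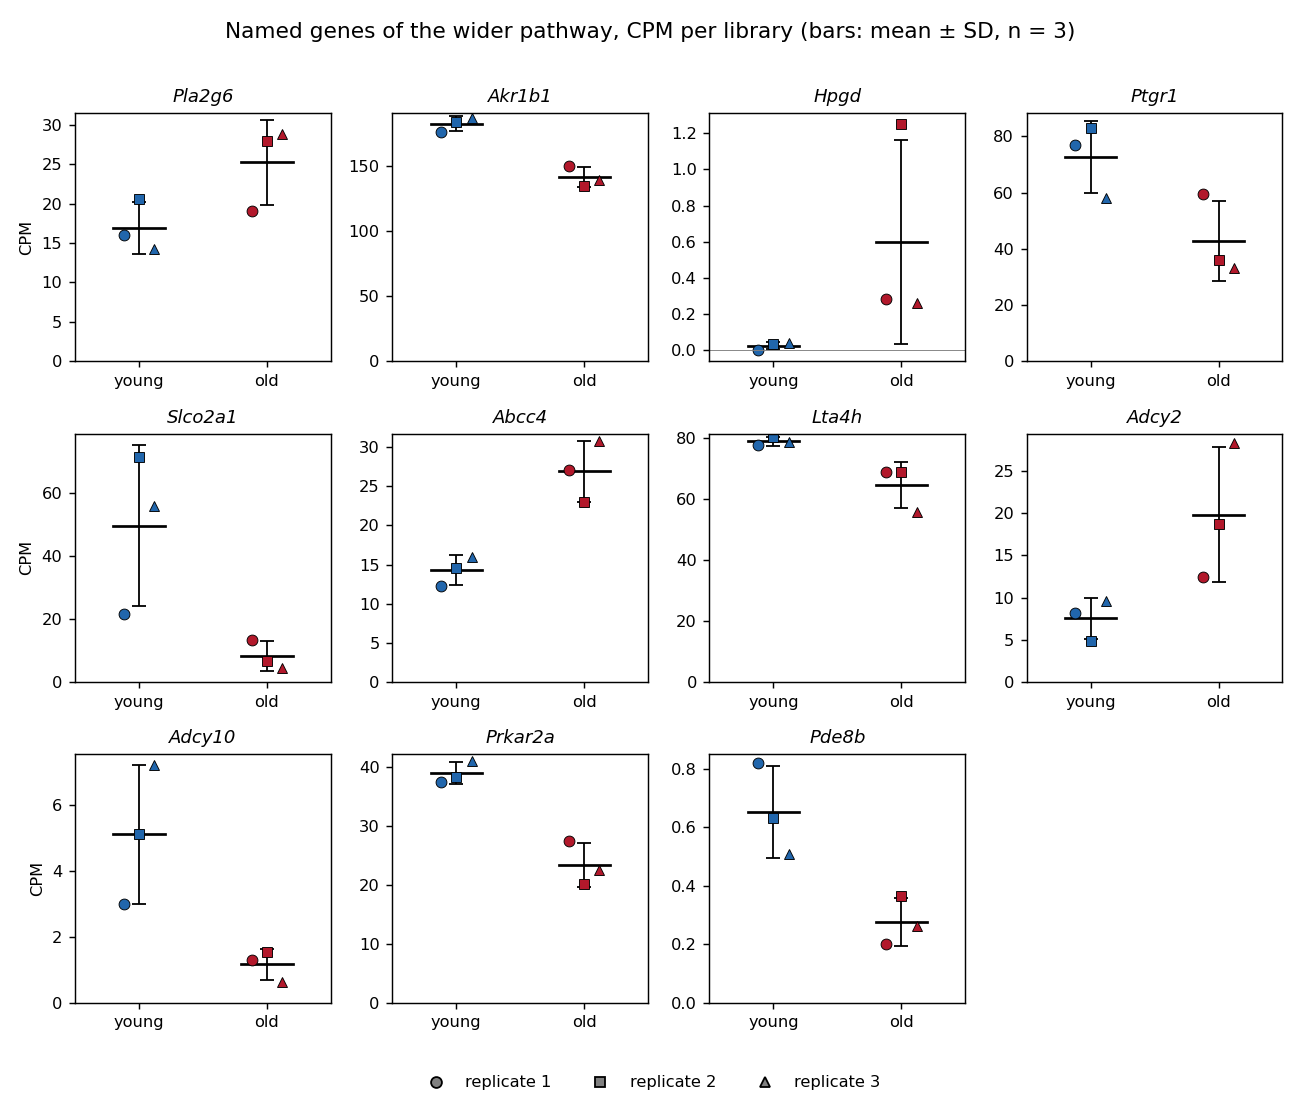
CPM per library of the 11 genes of the wider pathway that the naming rule picked (linear axes, blue young and red old, symbols by replicate number, black lines mean ± SD with n = 3). Slco2a1 runs from 21.5 to 71.6 CPM in young and from 4.55 to 13.4 CPM in old, while Abcc4 runs from 12.3 to 16.0 CPM and from 23.0 to 30.7 CPM.

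Adenylyl cyclases, which make cAMP, held the other DESeq2 calls, 1 in each direction. Adcy2, a membrane cyclase, had 8.15, 4.89 and 9.63 CPM in young and 12.4, 18.8 and 28.2 CPM in old, a difference of 1.39 on the log2 scale (SE 0.37, adjusted p = 0.118 from edgeR and 0.00635 from DESeq2). Adcy10, the soluble cyclase, had 2.99, 5.12 and 7.19 CPM in young and 1.31, 1.54 and 0.634 CPM in old, a difference of -2.13 on the log2 scale (SE 0.46, adjusted p = 0.0867 from edgeR and 0.000227 from DESeq2). For both genes the groups did not overlap. Of 9 cyclases analysed of 10 listed, 3 were below and 6 above their young level, and the median difference was 0.28 on the log2 scale.

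Downstream of cAMP the log2 fold changes ran from -1.23 to 0.95, against -2.13 to 1.39 for the cyclases. Prkar2a, a regulatory subunit of protein kinase A, was at 39.0 ± 1.86 CPM in young and 23.4 ± 3.76 CPM in old (SD, n = 3 each). Its groups were separate, with a log2 fold change of -0.74 (adjusted p = 0.0648 from edgeR and 0.000284 from DESeq2). Pde8b, a phosphodiesterase that degrades cAMP, had 37, 38 and 25 counts in young and 10, 19 and 14 in old (log2 fold change -1.23, adjusted p = 0.143 from edgeR). In this list of 16 kinase subunits and phosphodiesterases, 10 were lower and 6 higher. At an unadjusted p under 0.05 in edgeR there were 2, both lower, against 22.6% of all genes. G protein alpha subunits, which carry the signal from the receptors, had log2 fold changes from -0.25 to 0.37 over 8 genes, with 0 at an unadjusted p under 0.05 in edgeR and 0 called by DESeq2. The symbol Gnas was on 2 rows, of which the one with more counts was used.

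Upstream, 5 of 8 phospholipases were analysed, 1 lower in old and 4 higher, and their median was 0.57 on the log2 scale. Pla2g6, a calcium-independent phospholipase that can release arachidonic acid, had 17.0 ± 3.29 CPM in young and 25.2 ± 5.40 CPM in old (SD, n = 3 each, adjusted p = 0.188 from edgeR). Among 5 other prostanoid synthases and receptors analysed of 10, 3 were lower and 2 higher. Akr1b1, aldose reductase, which also forms prostaglandin F, had 182 ± 5.75 CPM in young and 141 ± 7.66 CPM in old (SD, n = 3 each). Its groups were separate, with a difference on the log2 scale of -0.37 (adjusted p = 0.101 from edgeR and 0.00186 from DESeq2). On the lipoxygenase side, 3 of 8 genes were analysed, and Lta4h, which makes leukotriene B, had a log2 fold change of -0.29 (adjusted p = 0.190 from edgeR).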

How the data were processed

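RNA of VSM cells cultured from SFA of 3 young and 3 old rats was sequenced as stranded polyadenylated libraries. The authors deposited raw counts per gene, not normalised. They trimmed reads with Cutadapt 3.5 through Trim Galore 0.6.7, aligned them with STAR 2.7.10b to Rnor 6.0 and counted them with featureCounts (Subread 2.0.8). The table holds 14475 genes, each with 10 or more counts in 3 or more libraries. How the counting treated strand, mates and multi-mapping reads is not stated in the sources used here.

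Counts were analysed in R 4.3.3 with edgeR 4.0.16 (TMM, quasi-likelihood F test, Benjamini-Hochberg adjustment over all genes, young as reference, no covariates). DESeq2 1.42.0, which gave no adjusted p for 292 genes, and limma-voom from limma 3.58.1 served as alternatives, beside other scalings, filters and thresholds, halved counts, a replicate block and each library left out. The standard error of a log2 fold change is its size over the root of its F statistic. The fits were tested on simulated data. P-values measure the spread between 3 cultures a group, and an exact permutation test of 3 against 3 cannot go below 0.1.

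The members, gene lists and marker lists were chosen with earlier results of these data known. Named genes are all members and, from each pathway list, genes called by edgeR or DESeq2 and up to 4 with the lowest edgeR p under 0.05. DESeq2 with libraries left out was added after seeing the data. Ratios planned with Ptges or Ptger2 were not run. Promoter sequences are from RefSeq, GRCr8, and 7 of the 8 members had an entry (not Ptgis).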

Additional observations from a re-analysis of the deposited data

How the results depend on the processing

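Of the 8 prostanoid genes, edgeR called 0 with RLE size factors, library size only, either stricter filter on low counts, halved counts or no limit on the fold change, and so did limma-voom. DESeq2 called 2, and 1 (Ptgs2) was called by edgeR at an adjusted p under 0.1. With each library left out, edgeR called 0 or 1, the 1 being Ptgs2 without old replicate 1, and DESeq2 called 1 or 2. Over all genes edgeR called 1. A minimum of 50 counts gave 65, DESeq2 805, an adjusted p under 0.1 gave 381, and limma-voom 0 (3347 at an unadjusted p under 0.05). With libraries left out edgeR called 0 to 732, the most without old replicate 1, and DESeq2 without young replicates 1, 2 and 3 called 737, 551 and 600, and without old replicates 1, 2 and 3 1377, 614 and 651. The cause was not tested.

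Ptgs2, Ptger1, Ptger4 and Ptgis kept their direction under each setting in which they could be tested. Ptger3 did so too, but its direction followed from the filter on low counts and says nothing about robustness. Ptger3 could not be tested under the 2 stricter filters, nor Ptgis under the minimum of 50 counts. Ptgir reversed under limma-voom (0.072), the replicate block (0.10), without young replicate 1 (0.07), young replicate 2 (0.34) and old replicate 3 (0.17), and in DESeq2 without the same libraries (0.065, 0.33 and 0.16). Ptgs1 reversed without young replicate 1 (0.17 in edgeR and in DESeq2) and Ptgfr without old replicate 2 (-0.45 in both). With each library left out, edgeR's values ran from -0.37 to 0.34 for Ptgir, from -0.74 to 0.17 for Ptgs1 and from -0.45 to 1.34 for Ptgfr.

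Whether the replicate numbers pair the cultures could not be decided, because deviations from a mean of 3 libraries depend on each other. Those deviations correlated at 0.03, 0.26 and 0.26 for numbers 1, 2 and 3. Young replicates 2 and 3 correlated best with the old library of their number, and young replicate 1 with old replicate 2 (0.29). With the replicate block edgeR called 0 of the 8 and 1 of all genes. Its adjusted p was then 0.282 for Ptgs1 (0.726 without the block) and 0.0931 for Ptgs2 (0.0574 without). Over the 52 wider pathway genes edgeR called 0 and DESeq2 4. Low counts limit Ptger3, Ptgis and Hpgd.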
